A study of Mus musculus with 4 samples.

Results

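Cajal-Retzius cells are the reelin-secreting neurons of the outermost layer of the developing cortex and hippocampus. Reelin, a large secreted protein, binds the receptors Vldlr and Lrp8 on neighbouring neurons and acts through the adaptor Dab1 to guide neuron placement, dendrites and synapses. Most neocortical Cajal-Retzius cells die soon after birth, but some persist in the adult hippocampus, where they use glutamate as their transmitter and lie near the hippocampal fissure.

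Here they were sought in single-nucleus RNA-seq data from the frozen hippocampi (both hemispheres) of 2 wild-type (WT) mice and 2 knock-in (KI) mice on a C57BL/6N background that carry 1 Cyfip2 allele with the R87C change (Cyfip2+/R87C), a model of West syndrome. Cyfip2 encodes a subunit of the WAVE complex, which controls actin branching. Each mouse gave 1 library, all 4 libraries carry the same batch label, and the KI mice carry the change in every cell from conception. The treatment label of KI replicate 2 reads R88C where the other KI library reads R87C, and the library was kept in the KI group that its title and genotype give. The ages and sexes of these 4 mice were not used here.

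Nuclei were taken as Cajal-Retzius nuclei when they had at least 2 UMIs (unique molecular identifiers, each 1 counted transcript) of Reln, at least 1 UMI of 2 or more of the transcription factor genes Trp73, Lhx1, Lhx5 and Ebf3 and the secreted-protein gene Ndnf, at most 1 UMI of Gad1 and Gad2 together, and fewer than 2 of 6 glial genes (Mobp, Mog, Prr5l, Gja1, Fgfr3 and Inpp5d). This rule found 220 nuclei among the 55295 that had at least 500 genes and under 5% mitochondrial UMIs, or 0.398%. WT replicates 1 and 2 held 51 and 59 of them, and KI replicates 1 and 2 held 61 and 49. The rule used measured values, so the levels of its genes are a description. These genes were fitted with the others below, but no test of them is reported. Of the 220 nuclei, 114 had 2 of the 5 genes, 70 had 3, 33 had 4 and 3 had all 5. At the edge of the rule, 2 members had just 2 UMIs of Reln, while 8 nuclei that met all other criteria had 1 UMI of it, and 176 nuclei that met all other criteria had 1 of the 5 genes.

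The label fitted the members' RNA in part. The deposited matrices held 73009975 to 80913580 UMIs per library, but a median member held 1730 and 2078 UMIs in WT replicates 1 and 2 and 2505 and 2728 in KI replicates 1 and 2, against 3987 to 4853 for all nuclei. KI members thus held more UMIs than WT members. When each member's RNA outside the rule genes was compared with the sum of the other members and with 8 other cell types, 183 of the 220 were nearest to the other members. The remaining 37 were nearest to another type, 15 of them to granule neurons and 8 to pyramidal neurons. They were deep nuclei, with a median of 4697 to 8209 UMIs per library, and they held 45.2% and 21.4% of all member UMIs in WT replicates 1 and 2 and 35.2% and 57.4% in KI replicates 1 and 2. The leading and named genes are therefore also given for the 183 nuclei alone, a choice made after the data were seen. Of the 220 members, 5 had a doublet score above 0.25, and no member barcode was found in more than 1 library, although any pair of libraries shared 40 to 67 barcodes.

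Reln itself, a rule gene, stood at 5280 and 6127 CPM (a gene's counts summed over these nuclei and scaled to their total UMIs in the library) in the members of WT replicates 1 and 2 and at 6762 and 5064 CPM in KI replicates 1 and 2. The genotypes overlapped. In Reln interneurons, the GABAergic nuclei with at least 2 UMIs of Reln and at least 2 of Gad1 and Gad2, it stood between 861 and 1229 CPM, and in all nuclei outside the members between 63.8 and 111 CPM. In the 183 nuclei nearest their own profile Reln was at 7424, 7322, 9471 and 9157 CPM in the same order of libraries. Both KI libraries lay above both WT libraries there, and nothing is read from it because the rule used Reln. The share of all genes that did so over the 183 is not given here. Of the other rule genes, Trp73 stood at 460, 589, 392 and 279 CPM over the 220, Ndnf at 904, 1447, 799 and 721 CPM and Lhx1 at 182, 152, 123 and 71.0 CPM. For these 3 genes both KI libraries lay below both WT libraries, as they did for 24.4% of the 3623 genes tested below, and nothing is read from it because the rule used these genes. Ebf3, at 214, 360, 427 and 198 CPM, and Lhx5, at 55.5, 27.7, 44.1 and 50.7 CPM, overlapped between genotypes.

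Apart from the rule genes, 15 genes led the profile of these nuclei by the lowest of their 4 folds over all other nuclei, among 2509 genes with at least 50 CPM in each library. They are given without a test, because the nuclei were chosen by their RNA. Lhx1os, a noncoding RNA that starts next to the rule gene Lhx1, stood at 79.3, 69.2, 58.8 and 71.0 CPM in the members of WT replicates 1 and 2 and KI replicates 1 and 2, against 0.151 to 0.557 CPM elsewhere, which is 142- to 389-fold higher. Cd274 encodes the immune checkpoint ligand PD-L1, and its fold lay between 66.8 and 148 across the libraries. Eln, the gene of elastin, was 45.9- to 71.7-fold higher, at 341, 367, 250 and 386 CPM.

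Dach1, a dachshund-family transcriptional cofactor, was seen in 200 of the 220 nuclei and stood at 1205, 1544, 1800 and 1218 CPM, 33.7- to 82.0-fold above the other nuclei. It was therefore not a feature of a few nuclei. Tmem163, a zinc transporter gene, was seen in 83.6% of the members and was 20.1- to 28.6-fold higher. Slc17a6 encodes the vesicular glutamate transporter VGLUT2, and it stood at 119, 215, 162 and 76.1 CPM in the members against 5.89 to 12.0 CPM in all other nuclei.

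The other leading genes with a known product were Pik3c2g (a class II phosphoinositide kinase), Lrig3 (a leucine-rich repeat membrane protein), Eya2 (a transcriptional coactivator), Vmn2r1 (a vomeronasal receptor) and Hs3st5 (a heparan sulfate sulfotransferase). Their lowest folds over all other nuclei ran from 11.9 for Hs3st5 to 39.7 for Pik3c2g. In Reln interneurons Hs3st5 was nearer to the members, at 135 to 228 CPM against 476 to 748 CPM, and was seen in 54.4% of them against 66.4% of the members. Gm10475 lies within Reln on the opposite strand and Gm49027 overlaps Diablo on the same strand, so their counts cannot be fully told apart from those of the host genes. Gm29683 and E130114P18Rik completed the 15. In the 183 nuclei nearest their own profile, each of the 15 genes was higher in all 4 libraries than in the 220; these genes were part of the RNA by which the 183 were chosen, so this is no independent result.

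**Figure D1:**
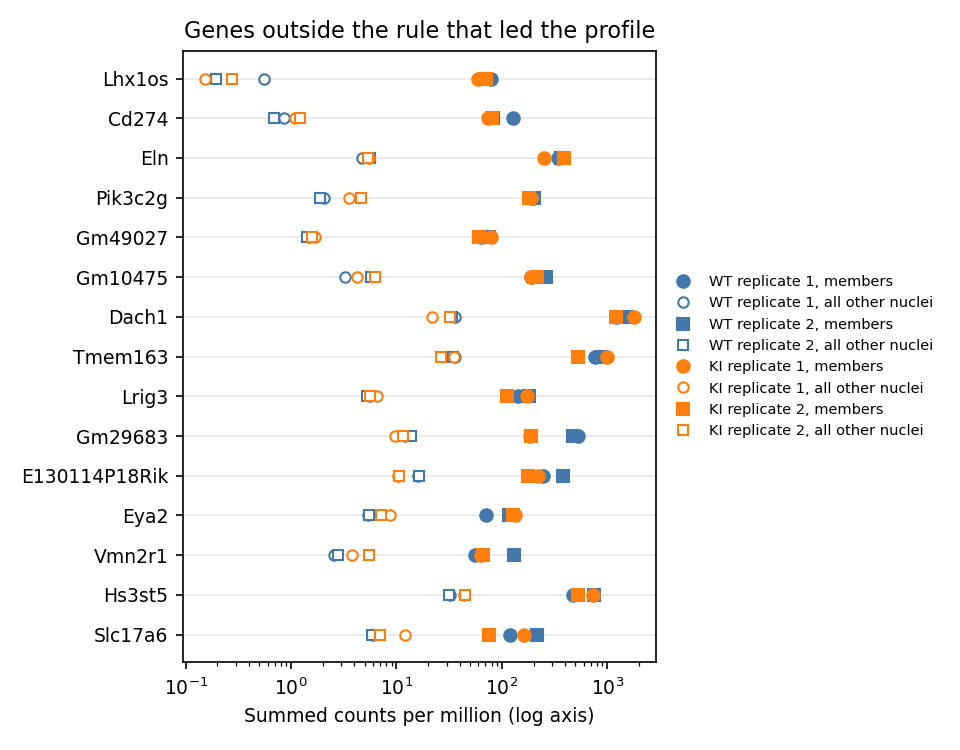
Summed CPM (log axis) of the 15 leading genes in Cajal-Retzius nuclei (filled) and in all other nuclei (open) of each library, with WT in blue, KI in orange, circles for replicate 1 and squares for replicate 2. Each filled point lies right of every open point of its gene, and Lhx1os shows the widest gap (142- to 389-fold).

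The start sites of Lhx1 and Lhx1os face away from each other on chromosome 11, and the stretch between them is shown because the leading gene of the profile and a gene of the rule share it. It is chr11:84525536-84525659 in GRCm38.p6 (RefSeq promoter sequence, matched by the symbol Lhx1, read on the minus strand toward Lhx1), with 124 bases and a G and C content of 66.1%.
Lhx1-Lhx1os interval: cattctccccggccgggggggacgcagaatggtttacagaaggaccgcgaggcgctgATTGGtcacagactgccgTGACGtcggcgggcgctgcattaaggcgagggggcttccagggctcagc
Capitals mark the matches to CCAAT (here on the other strand, as ATTGG) and to TGACG, which is also the first part of TGACGTCA. Searched on both strands, CCAAT was held by 21.8% and TGACG by 11.9% of the same stretch of 32851 RefSeq promoters. The letters GGGCGG had no match in the interval and were held by 26.7% of those stretches. For TATAAA, again without a match, the share was 6.53%. The longer TGACGTCA, held by 1.28% of the stretches, was not matched either. Of the 220 nuclei, 72 had a UMI of Lhx1, 37 had one of Lhx1os and 13 had both.

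A list of 20 genes known from Cajal-Retzius cells or their origins, none of them used by the rule, was then read as the share of nuclei with at least 1 UMI. Oligodendrocytes, whose median of 1683 to 2649 UMIs was close to that of the members, served with granule neurons and Reln interneurons as comparators. Their shares can hold free RNA as well as RNA of their own, and these were not told apart. After each nucleus was thinned to 1000 UMIs, which left out 5 of the 220 members, 15 of the 20 genes had a higher share in the members than in each of the 3 other classes. Of the 20, 9 were found in at least 2% of the thinned members. The same count over all genes is not given here, so 15 of 20 has no background to be read against. Cacna2d2, a calcium channel subunit gene, was found in 41.4% of the thinned members against 6.19% of Reln interneurons and 1.16% of oligodendrocytes. Before thinning it was found in 71.8% of the members (95% exact binomial interval 65.4 to 77.7) and in 34.2% of Reln interneurons.

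Slc17a6 was found in 14.4% of the thinned members and in at most 0.755% of the thinned nuclei of the other 3 classes. Emx2 and Nr2f2, transcription factor genes of the cortical hem and the caudal forebrain, were found in 9.77% and 12.6% of the thinned members. Nr2f2 was also found in 3.29% of the thinned Reln interneurons, and before thinning in 20.5% of them against 23.2% of the members. Nhlh2 was found in 11.4%, Tbr1 in 10.5%, Zic1 in 6.82% and Barhl2 in 6.36% of the members before thinning, and in 4.65%, 4.19%, 2.79% and 2.79% after it. The thinned shares of these 4 genes lay above those of the 3 other classes, which reached at most 1.05%, for Tbr1. They varied between libraries: Zic1 was seen in 0, 5, 7 and 3 members and Barhl2 in 1, 3, 8 and 2 members of WT replicates 1 and 2 and KI replicates 1 and 2, so that KI replicate 1 held most of the nuclei with Barhl2.

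Several of the genes listed for these cells, among them the marker gene Calb2, were seen in few or none of the members. Calb2, which encodes calretinin, was found in 5 of the 220 members (2.27%, interval 0.742 to 5.22), against 3.29% of Reln interneurons and 1.14% of oligodendrocytes, whose share thus lay inside the interval of the members. After thinning it was found in 1.86% of the members and in at most 0.627% of the other classes. Cxcr4, the chemokine receptor used in their migration, was found in 3 members (1.36%, interval 0.282 to 3.93) and in 0% after thinning. Before thinning it was found in 0.704% of Reln interneurons, 0.118% of oligodendrocytes and 0 of 575 granule neurons, which allows a share of up to 0.522% at 3 counts. Eomes was found in 0 of 220 members, which allows a share of up to 1.36% when 3 counts are taken as the limit and of 1.66% by the exact interval. These intervals and limits cover counting error only and concern nuclei with a UMI.

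**Figure D2:**
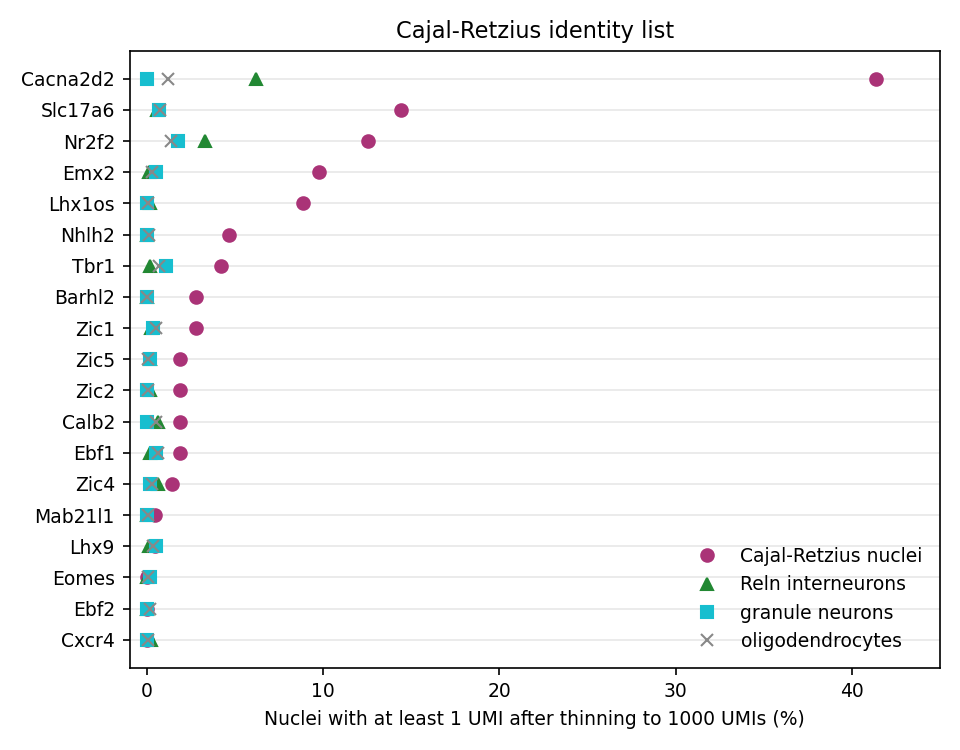
Share of nuclei (%) with at least 1 UMI of 19 of the listed genes after thinning to 1000 UMIs per nucleus, in Cajal-Retzius nuclei (circles), Reln interneurons (triangles), granule neurons (squares) and oligodendrocytes (crosses), pooled over 4 libraries. Cacna2d2 (41.4%) and Slc17a6 (14.4%) stand apart in the Cajal-Retzius nuclei, whereas their shares of Calb2 (1.86%) and Cxcr4 (0%) lie close to those of the other classes.

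The share of Cajal-Retzius nuclei addressed whether the KI hippocampus kept these cells. They made up 0.319% (95% exact interval 0.238 to 0.419) and 0.448% (0.341 to 0.578) of the nuclei in WT replicates 1 and 2, and 0.486% (0.372 to 0.624) and 0.360% (0.267 to 0.476) in KI replicates 1 and 2. The genotypes overlapped, with KI replicate 1 highest and WT replicate 1 lowest. The mean was 0.384% ± 0.0913 (SD, n = 2) for the WT mice and 0.423% ± 0.0887 (SD, n = 2) for the KI mice, and the difference was smaller than the spread between mice (two-sided exact permutation p = 0.667, where 4 libraries cannot reach 0.05). For the 183 nuclei nearest their own profile the means were 0.334% and 0.340% (exact permutation p = 1.0). Without WT replicate 1 or KI replicate 1 the KI share was the lower, at log2 ratios of -0.08 and -0.09, against 0.14 with all libraries. In such suspensions fewer cells of a type and fewer nuclei recovered from it cannot be told apart.

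**Figure D3:**
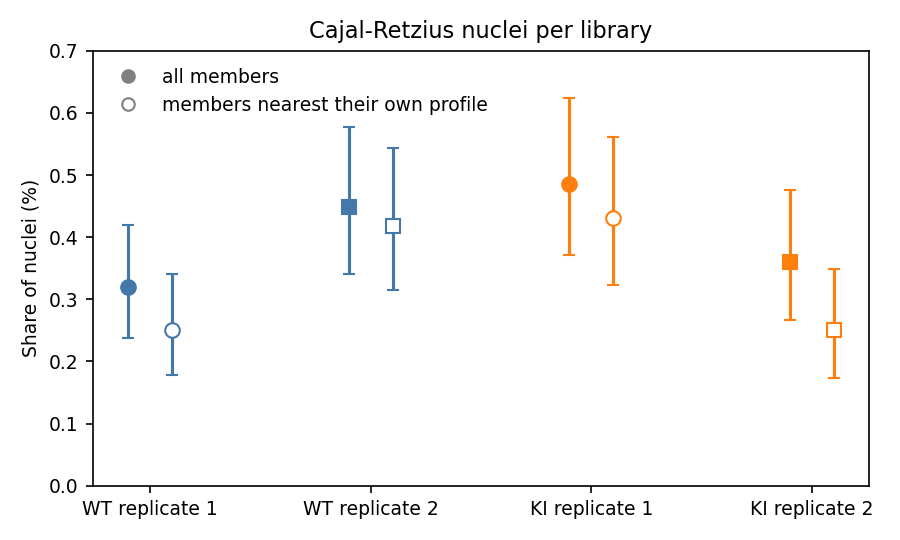
Share of all filtered nuclei (%) that met the rule in each library (filled) and of those nearest their own profile (open), with 95% exact binomial intervals. KI replicate 1 is highest at 0.486% and WT replicate 1 lowest at 0.319%, and the genotypes overlap.

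The main comparison asked which genes differed between KI and WT in these nuclei. Of 3623 genes tested on counts summed per mouse, 1 rose and 0 fell at an adjusted p below 0.05 (edgeR quasi-likelihood test with Benjamini-Hochberg adjustment), which is 0.0276% of the genes, and 299 (8.25%) had an unadjusted p below 0.05, 176 (4.86%) with a higher and 123 (3.39%) with a lower KI value. The KI and WT libraries did not overlap for 1395 genes (38.5%). The gene that rose was Gm32647, a long noncoding RNA gene on chromosome 7 (94042691 to 94709171, plus strand, mm10). It stood at 7.93 and 20.8 CPM in WT replicates 1 and 2 and at 206 and 604 CPM in KI replicates 1 and 2, from 1, 3, 42 and 119 counts (log2 fold change 4.80, SE 0.66, adjusted p = 0.00689). Few nuclei carried its counts: 4 carried it in KI replicate 1 and 5 in KI replicate 2, and single nuclei held 21 of the 42 and 113 of the 119 counts.

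Without the 37 nuclei nearest to another cell type, Gm32647 fell below the low-count filter, with 1, 3, 2 and 1 counts in the same order of libraries. In Reln interneurons of the same mice it stood at 86.9, 182, 304 and 155 CPM. Its call was lost when nuclei with more than 1 UMI of Slc17a7, the transporter gene of most hippocampal excitatory neurons, were left out, and when WT replicate 1 or WT replicate 2 was left out (0 genes called in each case). Its log2 fold change was then 4.53, 4.33 and 5.64, so the value stayed large where the call was lost. Without KI replicate 1 or KI replicate 2, 28 and 33 genes were called, with the remaining KI library assumed to vary like the WT pair. DESeq2 also called 1 gene.

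The other 9 genes named on the higher side did not pass the test and are given as values; 14.1% of all genes tested had both KI libraries above both WT libraries. Unc5d, a netrin receptor gene, stood at 63.4 and 83.1 (WT) and 206 and 416 CPM (KI) (log2 fold change 2.16, SE 0.42, adjusted p = 0.128). Sgcz, a sarcoglycan gene, and Gm15398, a noncoding gene inside Pcdh15 on the opposite strand, had log2 fold changes of 1.96 (SE 0.39) and 2.99 (SE 0.59). All 125777 bases of Gm15398 overlap Pcdh15, so without knowledge of strand its counts are uncertain as a separate value. In the 183 nuclei nearest their own profile Sgcz had a log2 fold change of 0.11 (SE 0.55) and the genotypes overlapped for both genes. For Grm8, a metabotropic glutamate receptor gene, 62 of 75 counts in KI replicate 1 and 16 of 18 in WT replicate 1 came from 1 nucleus each. Pcdh15, a protocadherin gene, and Gpc5, a glypican gene, had log2 fold changes of 1.43 (SE 0.32) and 1.22 (SE 0.30) over all members and of -0.09 (SE 0.38) and 0.14 (SE 0.44) over the 183. A230006K03Rik, a noncoding gene, stood at 103 and 83.1 (WT) and 275 and 259 CPM (KI). Over the 183 nuclei the genotypes overlapped for A230006K03Rik, at 43.4 and 88.1 against 75.6 and 119 CPM, and for Unc5d, at 43.4 and 70.5 against 60.5 and 83.4 CPM. Grm8 had 0 and 5 against 6 and 10 counts there, or 0 and 44.1 against 45.4 and 119 CPM, so its genotypes did not overlap.

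For Grin1 and Zmiz1os1 KI and WT stayed apart without the 37 nuclei. Grin1 encodes the subunit that every NMDA-type glutamate receptor needs, and it stood at 190 and 159 (WT) and 412 and 406 CPM (KI) (log2 fold change 1.33, SE 0.30, adjusted p = 0.176). Among the 183 nuclei it stood at 174, 141, 348 and 310 CPM (log2 fold change 1.17, SE 0.38, adjusted p = 0.241). Its genotypes did not overlap in either set, and part of the gene overlaps Grin1os on the opposite strand. Zmiz1os1, an antisense RNA gene, was found in 4 and 4 WT nuclei and in 20 and 20 KI nuclei, with log2 fold changes of 1.73 (SE 0.43, adjusted p = 0.266) and, over the 183, 1.64 (SE 0.51). It overlaps Gm26660 on its own strand by 63737 bases, and on the opposite strand Gm17747 by 11589 and Zmiz1 by 1944 bases, so its counts are uncertain as a separate value.

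On the lower side, 24.4% of all genes had both KI libraries below both WT libraries, and none passed the test. Hspa8, the constitutive heat-shock cognate chaperone, stood at 357 and 429 (WT) and 123 and 173 CPM (KI) (log2 fold change -1.31, SE 0.32, adjusted p = 0.227). Adcy8, a calcium-stimulated adenylyl cyclase gene, stood at 595 and 685 (WT) and 329 and 274 CPM (KI) (log2 fold change -0.98, SE 0.27, adjusted p = 0.422). The 2 genotypes were apart for both genes among the 183 nuclei as well, where the log2 fold changes were -1.15 (SE 0.35) for Hspa8 and -0.94 (SE 0.27) for Adcy8. Every gene named on the lower side stayed apart there. As for Grin1, this is no independent check, because the 183 are part of the nuclei on which the genes were picked.

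Gm29683, one of the 15 profile genes, stood at 531 and 478 (WT) and 186 and 188 CPM (KI) (log2 fold change -1.32, SE 0.29, adjusted p = 0.159), and its log2 fold change over the 183 was -0.98 (SE 0.29). Fbxl7, the gene of an F-box protein of ubiquitin ligases, had 198 and 187 CPM against 49.0 and 66.0 CPM (adjusted p = 0.174). Gm21798 overlaps Adcy8 on the opposite strand, and whether the counting used strand is not given in the sources used here, so its log2 fold change of -1.39 (SE 0.33) is uncertain as a separate value. Of the remaining lower genes, the transcription factor genes Foxo1 and Bcl11b and Txlng, Fat4 and Wwp2 had log2 fold changes between -2.14 and -1.41, from at most 19 counts in any library, with adjusted p of 0.28 for Foxo1 and 0.422 for the others.

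**Figure D4:**
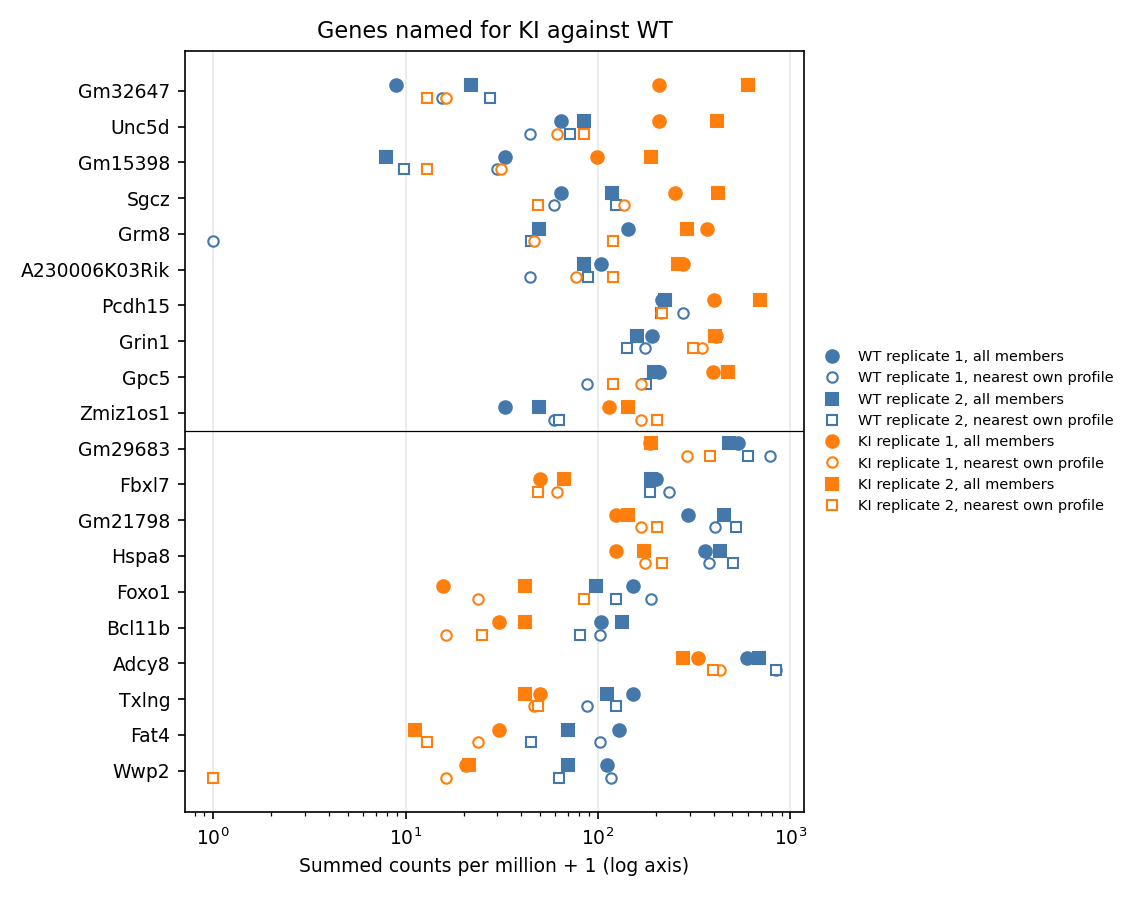
Summed CPM plus 1 (log axis) of the 20 genes named for KI against WT, over all 220 members (filled) and over the 183 nearest their own profile (open), with WT in blue, KI in orange, circles for replicate 1 and squares for replicate 2. Gm32647 drops from 206 and 604 to 15.1 and 11.9 in KI when the 37 nuclei are left out. Grin1, Zmiz1os1, Grm8 and every gene named on the lower side keep KI and WT apart.

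Over the 183 nuclei nearest their own profile, 2090 genes could be tested, 7 passed and all 7 were higher in KI. These genes were chosen after their values had been seen. They were also part of the RNA by which the 183 were chosen, so their adjusted p values are not independent of that choice. Kcnip4, an auxiliary subunit gene of A-type potassium channels, stood at 3430 and 3198 (WT) and 6861 and 5739 CPM (KI) (log2 fold change 1.0, SE 0.19, adjusted p = 0.000104), was carried by 37, 51, 53 and 33 nuclei, and had at most 13.5% of a library's counts in 1 nucleus. Mdga2, which encodes a synaptic adhesion regulator, stood at 1795 and 2661 (WT) and 3412 and 4132 CPM (KI) (log2 fold change 0.80, SE 0.20, adjusted p = 0.0151). Over all 220 members the log2 fold changes of these 2 genes were smaller, at 0.58 (SE 0.20) for Kcnip4 and 0.55 (SE 0.23) for Mdga2, with adjusted p of 0.479 and 0.55. Kcnip4 kept its call without WT replicate 1 or KI replicate 2 (log2 fold changes 1.07 and 1.17) and lost it without WT replicate 2 or KI replicate 1 (0.93 and 0.82), and Mdga2 was not called with any 1 library left out, at log2 fold changes of 0.58 and 1.12 without WT replicates 1 and 2 and 0.90 and 0.72 without KI replicates 1 and 2.

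The 5 other genes varied more between libraries or between nuclei of 1 library. Apod, the gene of the lipid carrier apolipoprotein D, stood at 188 and 44.1 (WT) and 726 and 143 CPM (KI), so that KI replicate 2 lay below WT replicate 1. In all other nuclei it stood at 82.4, 47.6, 547 and 134 CPM, with the same library on top, and the part of free RNA in the members' values was not tested. Gm26917 likewise stood at 416 CPM in KI replicate 1 and at 79.3 to 119 CPM in the other 3 libraries. For Galntl6, a glycosyltransferase-like gene, 1 nucleus per library held a large share of the counts. That share was 35.1% and 63.2% in WT replicates 1 and 2 and 40.5% and 79.0% in KI replicates 1 and 2. Ccdc85a was called without KI replicate 1 but not without any of the other 3 libraries, and Ccbe1, a secreted extracellular matrix protein gene, was called without WT replicate 1 or KI replicate 2 but not without WT replicate 2 or KI replicate 1.

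No gene of the 19 lists passed the test over all members. The rule genes, whose levels are given above, were fitted with the rest, but no test of them is reported. The median log2 fold change of all genes was 0.02, and it was -0.11 when library totals replaced the TMM factors, so the list medians are to be read against 0.02. Of the 20 listed Cajal-Retzius genes, 5 had enough counts, and their median was 0.16. Of the 21 genes of reelin signalling 9 were tested, and the median was -0.06. The receptor gene Lrp8 stood at 79.3, 76.2, 58.8 and 40.6 CPM, and Dab1 at 1625, 879, 1074 and 1147 CPM, below its 2030 to 2532 CPM in all other nuclei.

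Among receptors and channels, 13 of 18 ionotropic glutamate receptor genes were tested with a median of 0.12, and Grin1 and the kainate receptor gene Grik4 had an unadjusted p below 0.05 with a higher KI value, as had 4.86% of all genes tested (Grik4 0.96, SE 0.35, adjusted p = 0.496). The medians were 0.10 for 10 of 15 genes of GABA-A receptors and chloride transport and -0.10 for 7 of 14 sodium and HCN channel genes. Slc12a5, the chloride exporter of mature neurons, had 103 and 96.9 (WT) and 24.5 and 60.9 CPM (KI) (log2 fold change -1.12, SE 0.48, adjusted p = 0.571). Scn1a, a sodium channel gene, differed by 0.81 on the log2 scale (SE 0.36, adjusted p = 0.585).

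In the WAVE complex 8 of 11 genes were tested, with a median of -0.00082. Cyfip2, the gene that carries the change, stood at 119 and 125 (WT) and 167 and 142 CPM (KI) (log2 fold change 0.44, SE 0.34, adjusted p = 0.795); counts of 3' reads do not show the altered codon and so do not check the genotype. Brk1 had 103, 76.2, 24.5 and 40.6 CPM (adjusted p = 0.521). Only 1 of 15 immediate early genes, Homer1, and 2 of 13 genes of the p53 family and apoptosis, Mdm2 and Bcl2l1, had enough counts, and Trp63, the paralog of Trp73, was at 0 in all members.

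Among 7 nuclear long noncoding RNA genes, 6 were tested with a median of 0.27. Malat1, a marker of nuclear RNA, took 9.14% and 10.3% of the members' UMIs in WT and 13.1% and 11.6% in KI, and in all other nuclei it took 8.89%, 8.71%, 13.7% and 12.1%. Its log2 fold change in the members was 0.45 (SE 0.16, adjusted p = 0.496). Meg3 had a log2 fold change of 0.51 (SE 0.20) over all members and of -0.03 over the 183.

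Markers of other cells were present in the members, and the oligodendrocyte, astrocyte, excitatory and interneuron markers summed to less in each library than in all other nuclei. The rule itself limited the interneuron genes Gad1 and Gad2 and the glial genes Mobp, Mog, Prr5l, Gja1, Fgfr3 and Inpp5d, so these lower sums were in part set by the choice of nuclei. In WT replicates 1 and 2 and KI replicates 1 and 2, the summed level of 8 oligodendrocyte markers was 1110, 699, 1245 and 822 CPM, that of 7 astrocyte markers 404, 291, 206 and 193 CPM, and that of 7 hippocampal excitatory markers 959, 734, 559 and 736 CPM. The 9 interneuron markers summed to 706, 554, 309 and 665 CPM, the 5 microglia markers to 118 to 206 CPM and the 3 OPC markers to 53.9 to 208 CPM. Pvalb, Col1a2, Slc6a13, Flt1, Cldn5 and Ccdc153 were at 0. Fibroblast, endothelial, and ependymal and choroid markers summed to at most 48.5, 7.93 and 135 CPM. Some of these lists summed to more in the members than in all other nuclei, among them the OPC markers in KI replicate 2 (208 against 60.8 CPM) and, in WT replicate 2, the ependymal and choroid markers (48.5 against 13.9 CPM). Of all these lists, 4 oligodendrocyte, 3 excitatory and 1 each of the astrocyte, microglia, interneuron and ependymal genes were tested, and their part in the results above was not tested. Ptgds had a log2 fold change of 0.82 (SE 0.36) and Slc1a2 of -0.73 (SE 0.33), with adjusted p of 0.571 and 0.589.

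Reln interneurons, 1278 nuclei of the same 4 mice, were the nearest other class by their use of Reln, and KI effects were compared between the classes with a class-by-genotype term that kept the library as a block. Of 11743 genes 4 differed (0.0341%): Gm32647, Gm15398, Unc5d and Sgcz, each with the larger log2 change from WT to KI in Cajal-Retzius nuclei. The differences in log2 fold change were 4.05 (SE 0.65, adjusted p = 0.000185), 2.97 (SE 0.58, adjusted p = 0.00731), 2.15 (SE 0.42, adjusted p = 0.00731) and 2.02 (SE 0.41, adjusted p = 0.0111). Unc5d and Sgcz were at 1476 to 1753 and 2489 to 3137 CPM in the interneurons, above their level in either genotype of the Cajal-Retzius nuclei, and Gm15398 was at 209 to 272 CPM, above its KI values there. Without KI replicate 2 none of the 4 was called (2 other genes were), without WT replicate 1 Unc5d and Sgcz were not, and without WT replicate 2 Gm15398 was not. With high doublet scores left out, Gm32647 alone was called. Without the 37 nuclei nearest to another type, and likewise with at most 1 UMI of Slc17a7, 0 genes passed the test of the difference (487 and 553 had an unadjusted p below 0.05). With at most 1 UMI of Slc17a7 the log2 fold change of Gm32647 in the Cajal-Retzius nuclei was still 4.53, whereas in the 183 nuclei too few counts of it were left.

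Some named genes are given for both classes side by side, although the classes come from the same mice; Grin1, Hspa8, Adcy8 and Gm29683 were chosen after their values were seen, among the named genes that kept KI and WT apart without those 37 nuclei. Grin1 had log2 fold changes of 1.33 (SE 0.30) in Cajal-Retzius nuclei and 0.91 (SE 0.15, adjusted p = 0.0117) in Reln interneurons, and Hspa8 had -1.31 (SE 0.32) and -1.26 (SE 0.20, adjusted p = 0.00881). The differences between the classes were 0.47 (SE 0.33) for Grin1 and -0.02 (SE 0.33) for Hspa8, both with an adjusted p of 1. For Adcy8 the values were -0.98 (SE 0.27) and 0.02 (SE 0.14), a difference of -0.97 (SE 0.29, adjusted p = 0.6). Gm29683 had -1.32 (SE 0.29) and -0.20 (SE 0.19), a difference of -1.10 (SE 0.31, adjusted p = 0.446). Gpc5 and A230006K03Rik, which overlapped between genotypes over the 183 nuclei, passed the test in the interneurons, at log2 fold changes of 1.54 (SE 0.19, adjusted p = 0.00222) and 0.77 (SE 0.12, adjusted p = 0.00881). In the interneurons 172 of 12687 genes (1.36%) passed the test, from a sum of 2118532 to 3225531 UMIs per library against 126136 to 203940 in the members, so the numbers of calls do not compare the classes.

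**Figure D5:**
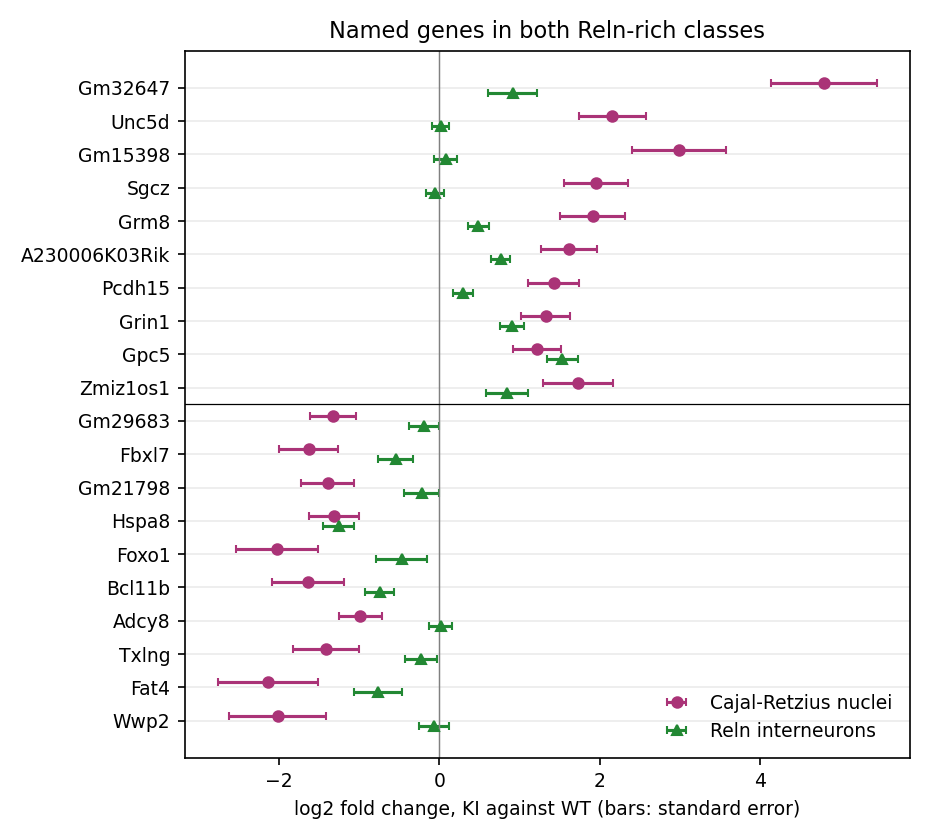
Log2 fold change of KI against WT (points, with standard errors as bars) of the 20 named genes in Cajal-Retzius nuclei (circles) and in Reln interneurons (triangles) of the same 4 mice. Hspa8 (-1.31 and -1.26) and Grin1 (1.33 and 0.91) are plotted beside Gm32647, Gm15398, Unc5d and Sgcz, the genes whose difference between the classes passed the test; these 4 calls were lost without the 37 nuclei nearest to another type.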

How the data were processed

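Nuclei of frozen hippocampus were profiled with a droplet method that captures 3' ends. The authors deposited raw UMI counts per gene and barcode, made with Cell Ranger 7.0.1 per the file headers and on mm10 per the submitters' processing notes. The annotation, the use of intronic reads and strand are not given in the sources used here. Positions are from GENCODE M21 (GRCm38), which held 32158 of 32285 gene IDs.

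The members and gene lists were chosen with earlier results of these data known. Counts were summed per library over the members and tested with edgeR 4.0.16 in R 4.3.3 (low-count filter, TMM factors, quasi-likelihood test, Benjamini-Hochberg adjustment, threshold 0.05). The study tested single nuclei with MAST; nuclei of 1 mouse are not replicates, so sums were used. Named genes were those past the threshold with a mean of at least 20 CPM and no overlap between genotypes, up to 10 per direction by fold, filled in order of unadjusted p among genes of at least 50 CPM without overlap. The SE is the absolute log2 fold change over the root of F. For the nearest profile, log-likelihoods with a pseudocount of 0.1 were compared, leaving each nucleus out of its own sum. Doublets were scored with Scrublet in scanpy 1.11.5 and kept in the main analysis. The edgeR script was checked on simulated counts. Replicates differed by more than counting noise. Alternatives were DESeq2, other scalings, filters, depth and rules, and leaving out each library. Tests measure the spread between mice, 2 per genotype. A few items are not reported here.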

Additional observations from a re-analysis of the deposited data

Results flagged for a closer look

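The KI effect of 4 genes differed between Cajal-Retzius nuclei and Reln interneurons by the class-by-genotype term. Gm32647 differed by 4.05, Gm15398 by 2.97, Unc5d by 2.15 and Sgcz by 2.02 on the log2 scale. Single nuclei carried 70.2%, 28.1%, 16.9% and 29.1% of the counts of these genes in the 2 KI libraries, and Gm32647 had 161 counts there in 9 nuclei. With only the 183 nuclei nearest their own profile, the counts were 1 and 3 in WT and 2 and 1 in KI for Gm32647, 2 and 1 against 4 and 1 for Gm15398, 3 and 8 against 8 and 7 for Unc5d and 4 and 14 against 18 and 4 for Sgcz.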

How the results depend on the processing

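The single call over all members was made under RLE factors, library totals, DESeq2, equal depth, without high doublet scores, and with the replicate number as a block (1 gene each). It became 0 genes with no low-count filter, with Reln at 1 UMI, with at most 1 UMI of Slc17a7 or with at least 1000 genes per nucleus (618, 301, 189 and 232 at an unadjusted p below 0.05), 8 with a filter of 20 counts, 6 with at least 3 of the 5 genes, and 7 over the nuclei nearest their own profile. Gm32647 was among the 8 but not among the 6 or the 7. Leaving out 1 library gave 0 to 33 genes, and 0 to 7 over the nuclei nearest their own profile. The same replicate number did not pair the libraries (correlation of the replicate differences across genes -0.07). The count of genes that differed between the classes went from 4 to 0 with at most 1 UMI of Slc17a7, 1 without high doublet scores, 0 over the nuclei nearest their own profile, and 2 to 9 without 1 library, where the 2 without KI replicate 2 were none of the 4. The log2 ratio of the shares ran from 0.03 to 0.58 under other rules and from -0.090 to 0.41 without 1 library (-0.083 without WT replicate 1, -0.090 without KI replicate 1). Directions turned for Pcdh15 (-0.088) and Meg3 (-0.029) over the nuclei nearest their own profile and for Gpc5 (-0.0052) with at most 1 UMI of Slc17a7, and, where a library was also left out, for Sgcz (-0.95 and -0.22), Pcdh15 (-0.31, -0.12 and -0.044), Gpc5 (-0.21 and -0.18) and Meg3 (-0.19 and -0.10). The cause was not tested. With 126136 to 203940 UMIs per library, list genes of few counts could not be tested.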
